A study of Mus musculus with 16 samples.

Results

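Cortical thymic epithelial cells of mice without Psmb11 (cTEC KO, 2 libraries) were compared with MHC class II low medullary thymic epithelial cells of the same genotype (mTEClo KO, 3 libraries). These are 5 of the 16 RNA-seq libraries of the series, taken by their labels alone. The comparison asks what still parts the cortex from the MHC class II low medulla when the thymoproteasome subunit beta5t is absent. The knockout mice carry psmb11 -/- and their wild-type (WT) controls psmb11 +/+, and every sample has the strain label "C57BL/6-derived BAC". The matching WT comparison, 2 cTEC WT libraries against 3 mTEClo WT libraries, shares no library with the knockout one and serves as its reference. CD45-negative, EpCAM-positive thymic cells were sorted, as cTEC when they carried Ly51 and did not bind the lectin UEA1, and as mTEC in the reverse case. The mTEClo label adds that MHC class II was low. The labels give an age of 6 to 8 weeks and the series design 11 thymi, whereas the extraction protocol gives 7 days and 14 mice. How many animals went into a library is not stated, so the p-values rest on the spread between libraries, and this spread may be technical.

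Thymic epithelium instructs developing T cells in a fixed order of places. The cortex attracts progenitors with chemokines, drives them into the T lineage through a Notch ligand and positively selects them on self-peptides, part of which the thymoproteasome cuts. The medulla then displays antigens of many other organs. MHC class II low medullary cells mix immature cells, cells that make CCL21, and mature cells that have taken on features of tuft, skin-like or other peripheral epithelium.

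The targeted gene was read first. Psmb11 (Gene ID 73902, chr14:54625310-54629556 on GRCm38) had 157 and 0 reads in the cTEC KO libraries and 177, 111 and 115 reads in the mTEClo KO libraries. In the WT it had 15214 and 12756 reads in cTEC and 707, 1220 and 778 in mTEClo. Its level as CPM, the count scaled to library size with TMM, was thus 1.99 and 0 in cTEC KO against 1.5, 1.04 and 1.04 in mTEClo KO. The gene did not part the knockout populations (log2 fold change -0.27, adjusted p = 0.946), whereas cTEC WT exceeded mTEClo WT by 4.05 on the log2 scale. A single library decides this result: without cTEC KO 2, which has no read, the fold change was 0.72 (adjusted p = 0.213), and without cTEC KO 1 the gene was called lower, with 0 reads in the remaining cTEC KO library (adjusted p = 0.000226). Which exons the deletion removes is not stated in the labels, so the remaining reads were not placed within the gene.

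Each library held 67810047 to 115251165 reads in genes, and the cTEC KO libraries were the shallower. Both differed more from each other than the mTEClo KO libraries did: their counts correlated at 0.946 on the log scale, against 0.994 to 0.995 among mTEClo KO, and the biological coefficient of variation was 0.387 against 0.149. Reads outside any gene made up 30.4% and 19.9% of the cTEC KO libraries and 13.7% to 17.4% of the mTEClo KO libraries. Of the 23420 gene entries, 5757 and 8541 had no read in cTEC KO 1 and cTEC KO 2, against 4729 to 5062 in mTEClo KO. These shares move with the groups compared, and their part in the results was not tested.

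Of 17393 genes tested, 577 (3.32%) were higher and 500 (2.87%) lower in cTEC KO than in mTEClo KO (edgeR quasi-likelihood test, Benjamini-Hochberg adjusted p under 0.05). A second fit, voom with its own variance for each population, called 440 (2.53%) of the same genes higher and 200 (1.15%) of them lower. In the WT the edgeR test called 3590 of 17213 genes higher (20.9%) and 4145 lower (24.1%). The knockout counts moved with each library left out. Without mTEClo KO 1, 2 or 3 the calls fell to 34, 69 and 2 higher and to 16, 45 and 1 lower, with 2 libraries left on each side. Leaving out cTEC KO 1 they came to 3816 and 6019, and without cTEC KO 2 to 2241 and 1993; the lone cTEC KO library is then assumed to vary like the mTEClo KO libraries. No called gene was called in the other direction under any of these settings. Genes with an unadjusted edgeR p under 0.05 numbered 2735, 2661 and 2583 without mTEClo KO 1, 2 and 3, against 4414 with all libraries. Such counts, here and for each list below, state what passes with fewer libraries and not how far the fold changes moved.

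Most cortical marker genes were higher in cTEC KO than in mTEClo KO. Of 11 such genes, all 11 were tested and 9 were higher, where 3.32% of all genes tested were. The median log2 fold change of the 11 was 2.33, against a median of -0.04 over all genes tested. In cTEC WT against mTEClo WT, 10 of the 11 were higher, where 20.9% of all genes tested were, with a median of 2.54. The other knockout genes were Ctsl and Il7, which did not pass. The list was chosen with earlier results of these data known, so it describes the cTEC label and is no independent check of it. Without cTEC KO 1 and 2 the median of the 11 was 2.61 and 1.86. Without mTEClo KO 1, 2 and 3 it was 2.26, 2.37 and 2.38. With cTEC KO 1 or cTEC KO 2 left out the count was 10 and 9, and without mTEClo KO 1, 2 and 3 it was 4, 4 and 0.

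Prss16 (chr13:22002176-22009741), the thymus-specific serine protease that shapes the peptides on cortical MHC class II, stood at 403 and 814 CPM in cTEC KO. In mTEClo KO it stood at 42.1, 56.4 and 46.8 CPM. The log2 difference was 3.63 with an SE of 0.30 (adjusted p = 0.00601), and the lower cTEC KO library still lay far above the highest mTEClo KO library. Cd83, which keeps MHC class II on the cortical cell surface, read 42.4 and 46.4 CPM against 3.2, 4.33 and 3.52 CPM (log2 fold change 3.57, adjusted p = 0.00346). Ly75, the endocytic receptor DEC-205, read 145 and 170.2 CPM against 41.8, 55.8 and 58.8 CPM (log2 fold change 1.58, adjusted p = 0.00864). Tbata, a regulator of thymic epithelial growth, read 271 and 482 CPM against 65.2, 78.1 and 79 CPM (log2 fold change 2.33, adjusted p = 0.00831). Ctsl, the cathepsin that processes the invariant chain in the cortex, read 2391 and 2865 CPM in cTEC KO and 1683, 1905 and 1788 CPM in mTEClo KO. Its groups did not overlap, as was the case for 20.4% of all genes tested with cTEC KO above, and its adjusted p of 0.0557 missed the threshold.

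Signals that the cortex sends to thymocytes were among these genes. Ccl25, which attracts progenitors through CCR9, read 245 and 391 CPM in cTEC KO and 18.8, 30.2 and 27.5 CPM in mTEClo KO (log2 fold change 3.62, adjusted p = 0.00516). Cxcl12, the ligand of CXCR4, read 553 and 786 CPM against 199, 234 and 199 CPM (log2 fold change 1.65, adjusted p = 0.00803). Both cTEC KO libraries exceeded every mTEClo KO library for either chemokine. Kitl, the stem cell factor that supports early thymocytes, read 96.3 and 101 CPM against 15.4, 18.3 and 14.8 CPM (log2 fold change 2.59, adjusted p = 0.00346). Dll4, the Notch ligand that commits progenitors to the T lineage, read 26.3 and 39.8 CPM against 7.55, 9.69 and 11.3 CPM (log2 fold change 1.77, adjusted p = 0.0196). Ackr4 (Ccrl1 in the table), the atypical receptor that clears CCL19, CCL21 and CCL25, read 210.2 and 366 CPM against 54, 52.2 and 41.9 CPM (log2 fold change 2.52, adjusted p = 0.00742). Il7, the survival cytokine of early thymocytes, read 262 and 288 CPM in cTEC KO and 314, 367 and 341 CPM in mTEClo KO (adjusted p = 0.136). Its cTEC KO libraries lay below the mTEClo KO libraries by a small margin, without passing the test.

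**Figure D1:**
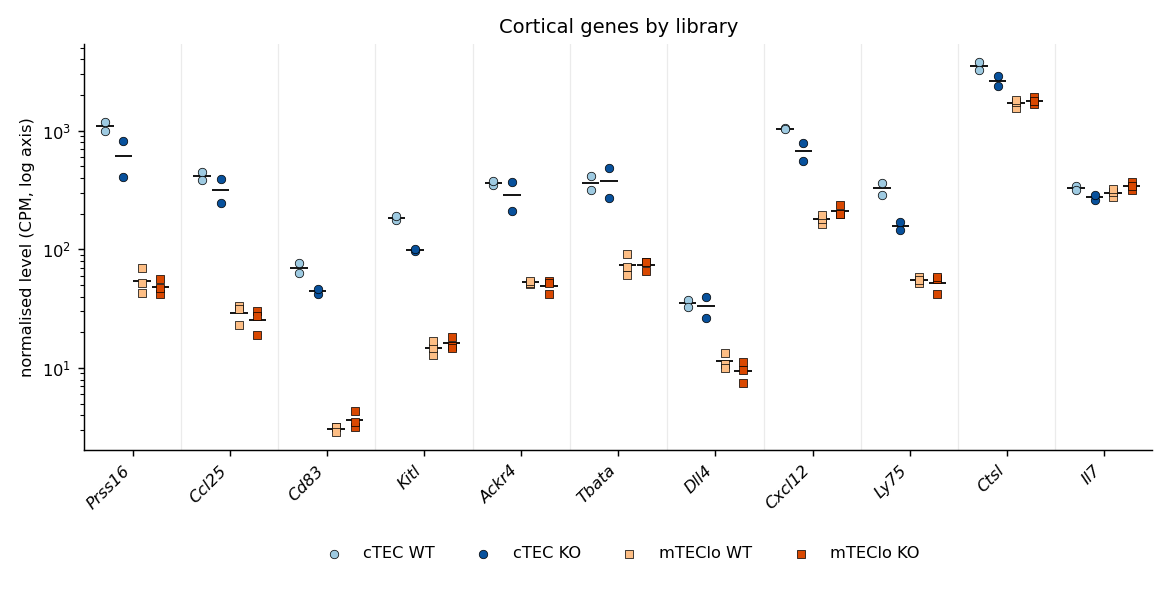
Level of the 11 cortical genes in each library, in CPM on a log axis; circles are cTEC and squares mTEClo libraries, pale for WT and dark for KO, and bars are group means. From Prss16 to Ly75 both cTEC KO libraries sit above all 3 mTEClo KO libraries by a wide margin, while for Ctsl and Il7 the KO groups lie nearer to each other.

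Per gene length, in the authors' RPKM, Prss16 was at 144 and 313 in the cTEC KO libraries and Ccl25 at 140 and 244. Cxcl12 was at 56.2 and 87.1 RPKM, and Dll4 at 5.83 and 9.65 RPKM. Among these ligands and the protease, Dll4 was thus the least abundant transcript per length in both cTEC KO libraries. In mTEClo KO the same genes were at 18.2 to 23.8, 12.3 to 19.8, 22.5 to 27.3 and 1.94 to 2.81 RPKM.

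The 4 ligand genes are shown by the 250 bases before their RefSeq start (GRCm38.p6, plus strand in each case), since they moved together and FOXN1, the master regulator of thymic epithelium, is known to bind a GACGC core. Capitals mark GACGC or its reverse complement GCGTC.
Ccl25, chr8:4324960-4325209: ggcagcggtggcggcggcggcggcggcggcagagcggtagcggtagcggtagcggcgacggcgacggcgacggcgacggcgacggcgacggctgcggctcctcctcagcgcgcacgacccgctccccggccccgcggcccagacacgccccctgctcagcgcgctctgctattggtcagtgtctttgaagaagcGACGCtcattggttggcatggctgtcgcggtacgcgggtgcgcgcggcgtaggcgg
Cxcl12, chr6:117168285-117168534: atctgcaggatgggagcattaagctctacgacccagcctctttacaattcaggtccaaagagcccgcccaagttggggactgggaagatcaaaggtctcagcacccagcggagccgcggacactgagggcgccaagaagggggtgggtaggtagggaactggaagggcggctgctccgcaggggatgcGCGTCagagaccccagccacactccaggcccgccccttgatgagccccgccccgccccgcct
Kitl, chr10:100015571-100015820: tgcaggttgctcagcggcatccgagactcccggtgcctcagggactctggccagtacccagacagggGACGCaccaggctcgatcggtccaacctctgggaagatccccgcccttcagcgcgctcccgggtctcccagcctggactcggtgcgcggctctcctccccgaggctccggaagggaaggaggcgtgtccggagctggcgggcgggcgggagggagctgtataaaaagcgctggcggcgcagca
Dll4, chr2:119325534-119325783: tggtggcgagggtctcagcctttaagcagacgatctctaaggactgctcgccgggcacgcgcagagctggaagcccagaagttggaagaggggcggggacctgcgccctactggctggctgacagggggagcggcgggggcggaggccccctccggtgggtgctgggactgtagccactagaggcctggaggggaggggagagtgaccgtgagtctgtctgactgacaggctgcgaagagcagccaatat
Ccl25, Cxcl12 and Kitl each held 1 match, and the Dll4 window held none. Of the 11 cortical genes, 8 had a promoter entry and 3 of these held the letters on either strand, while 22.6% of all 32851 RefSeq windows of this length did. A match describes the sequence and is not a binding site.

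The transcription factors of thymic epithelium parted the populations in both directions. Of 16 tested, 3 were higher and 2 lower in cTEC KO, where 3.32% and 2.87% of all genes tested were. Both fits called 2 higher and 2 lower. In 10 the cTEC KO libraries lay above all mTEClo KO libraries and in 2 below, against 20.4% and 26.6% of all genes tested. The median log2 fold change was 0.37 in the knockout and 0.47 in the WT. In the WT 10 were called higher and 4 lower, where 20.9% and 24.1% of all genes tested were. Pax1, a pharyngeal pouch factor, read 472 and 570.0 CPM against 243, 236 and 231 CPM (log2 fold change 1.12, adjusted p = 0.0075). Tbx1, which acts in the same pouches, was low, at 4.46 and 9.31 CPM against 0.567, 1.02 and 1.3 CPM, and passed the test (adjusted p = 0.0489). Foxn1 itself read 108 and 144 CPM in cTEC KO and 67.5, 65.6 and 87.3 CPM in mTEClo KO. Every cTEC KO library lay above every mTEClo KO library, but the log2 fold change of 0.76 had an adjusted p of 0.0633. The epithelial factors Ehf and Elf3 were lower, with log2 fold changes of -0.79 and -0.80. Without cTEC KO 1 the counts for these factors were 8 higher and 5 lower, without cTEC KO 2 they were 5 and 2, and none passed without any 1 of the mTEClo KO libraries.

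Further ligands and growth factors were higher in cTEC KO. Of 12 thymocyte growth factor genes, 3 were higher and none lower, the third beside Kitl and Bmp4 being Tgfb2. For this list and the next, the shares over all genes tested were 3.32% higher and 2.87% lower. Tgfb2, a transforming growth factor, read 29 and 38.5 CPM against 14.6, 14.7 and 13.8 CPM (log2 fold change 1.21, adjusted p = 0.0178), and Bmp4 read 6.07 and 19.2 CPM against 2.35, 1.78 and 2.21 CPM (adjusted p = 0.0449). Of 11 Notch pathway genes, Dll4 and Dll1 were higher, while Heyl and Nrarp, both targets of Notch signalling, were lower. Dll1 and Nrarp passed edgeR alone. Heyl read 55.6 and 52.4 CPM in cTEC KO and 113, 95.2 and 121 CPM in mTEClo KO (log2 fold change -1.04, adjusted p = 0.0145). Jag1, Notch1, Notch2 and Hes1 had log2 fold changes between -0.16 and 0.10 and did not pass. Id1 and Id3, targets of BMP signalling, were lower in cTEC KO, by -1.08 and -0.89 on the log2 scale. Of 19 Wnt and BMP pathway genes tested, 1 was higher and 3 lower, where 3.32% and 2.87% of all genes tested were, with a median of -0.38. In the WT 5 were higher and 9 lower, where 20.9% and 24.1% of all genes tested were, with a median of -0.32. Without cTEC KO 1 and 2 the growth factor list had 8 and 6 genes higher and 1 and none lower, and the Notch list had 4 and 3 higher and 3 and 2 lower. Without mTEClo KO 1 and 2 the growth factor list had 1 gene higher each, and the Notch list had 0 and 1 gene lower. Without mTEClo KO 3 no gene of the growth factor and Notch lists passed. No gene of the Wnt and BMP list passed without any 1 mTEClo KO library.

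Outside the lists, the gene with the smallest p-value was Scn1a (Gene ID 20265, chr2:66270781-66440837), a voltage-gated sodium channel subunit known from neurons. It read 121 and 130.2 CPM in cTEC KO and 5.66, 6.96 and 6.75 CPM in mTEClo KO (log2 fold change 4.26, adjusted p = 8.29e-04). Enpep, next in order with 108 and 104 CPM against 12.9, 14.4 and 14.6 CPM, encodes Ly51, the antigen of the cTEC sort gate, so its difference checks the sort and is no finding. Other genes high in cTEC KO by the same rule were the prokineticin receptor gene Prokr2, with 53.7 and 53.7 CPM against 7, 7.4 and 5.79 CPM, and the AMPA receptor subunit gene Gria3, with 100.1 and 108 CPM against 20.6, 24.3 and 25.3 CPM. Crip3, a LIM-domain gene, read 89.1 and 90.3 CPM against 19.4, 21.8 and 22.7 CPM. Rapgef3, an exchange factor that responds to cyclic AMP, read 40.4 and 37.1 CPM against 5.59, 5.13 and 5.04 CPM. In all of these both cTEC KO libraries were close to each other, which the smallest p-values favour. The largest folds were those of the chemokine gene Ccl22 (4.64 on the log2 scale, at 61.2 and 219 CPM in cTEC KO) and of scarcer transcripts: Myo16, Flt3, Ceacam15, Ogn, Npr3, Mmp25 and Palm3 had log2 fold changes of 4.46 to 5.27 and at most 21.9 CPM in any cTEC KO library, the value of Ogn in cTEC KO 2.

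On the mTEClo side stood a chemokine and basal keratins. Cxcl14 (chr13:56288643-56296811), a chemokine of epithelia, read 10.3 and 7.68 CPM in cTEC KO and 157, 169.6 and 205 CPM in mTEClo KO. The log2 difference was -4.32 with an SE of 0.21 (adjusted p = 0.00346), the largest fold among the genes named as lower. Krt14, a keratin of basal epithelium, read 662 and 860.4 CPM against 1900, 2035 and 2173 CPM (log2 fold change -1.44, adjusted p = 0.00803). Krt17 read 1107 and 1043 CPM against 2560, 2692 and 2938 CPM, and Krt5, the partner of Krt14, read 2882 and 3235 CPM against 5243, 5735 and 5880 CPM, with log2 fold changes of -1.36 and -0.90. Krt14, Krt17 and Krt5 were the 3 called among 12 markers of MHC class II low medulla, of which 11 are in the table and 10 were tested; their median log2 fold change was -0.06. Among all genes tested, 2.87% were lower in the knockout. In the WT 5 of the 10 were lower and 3 higher, where 24.1% and 20.9% of all genes tested were. Ccl21a, the defining chemokine of these cells, was listed at 0 reads in every library; it has near-identical copies in the genome, between which the counting may have lost its reads. Trp63, Itgb4, Lifr and Krt15 had log2 fold changes between 0.03 and 0.34, and their adjusted p-values lay between 0.15 and 0.927. Leaving out cTEC KO 1 or 2, this list had 4 and 3 genes lower, and 3 and none higher, and without mTEClo KO 1, 2 and 3 it had 1, 1 and 0.

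Chemokine and chemokine receptor genes parted the populations in both directions: of 16 tested, 5 had more transcript in cTEC KO and 4 had less. Among all genes tested, 3.32% were higher and 2.87% lower. Ccl19, which draws thymocytes to the medulla through CCR7, read 115 and 81.3 CPM against 207, 184 and 217 CPM (log2 fold change -1.06, adjusted p = 0.0268). Cxcl10, an interferon-induced chemokine, read 344 and 375 CPM against 993, 1443 and 1472 CPM (log2 fold change -1.88, adjusted p = 0.00887), and Cxcl9, induced in the same way, had one of -1.57. Ccl11, the eotaxin gene, which stood in no list, read 297 and 275 CPM against 780.1, 831 and 763 CPM. On the other side, Ccl22 read 61.2 and 219 CPM against 6.43, 4.9 and 5.28 CPM and Ccl5 read 43.7 and 116 CPM against 7.89, 10.7 and 10.0 CPM. For both, cTEC KO 2 was several times higher than cTEC KO 1, and each cTEC KO library exceeded all mTEClo KO libraries. The counts were 8 and 4 without cTEC KO 1, 7 and 6 without cTEC KO 2, and 1 and 2, 1 and 1, and 0 and 1 without mTEClo KO 1, 2 and 3.

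**Figure D2:**
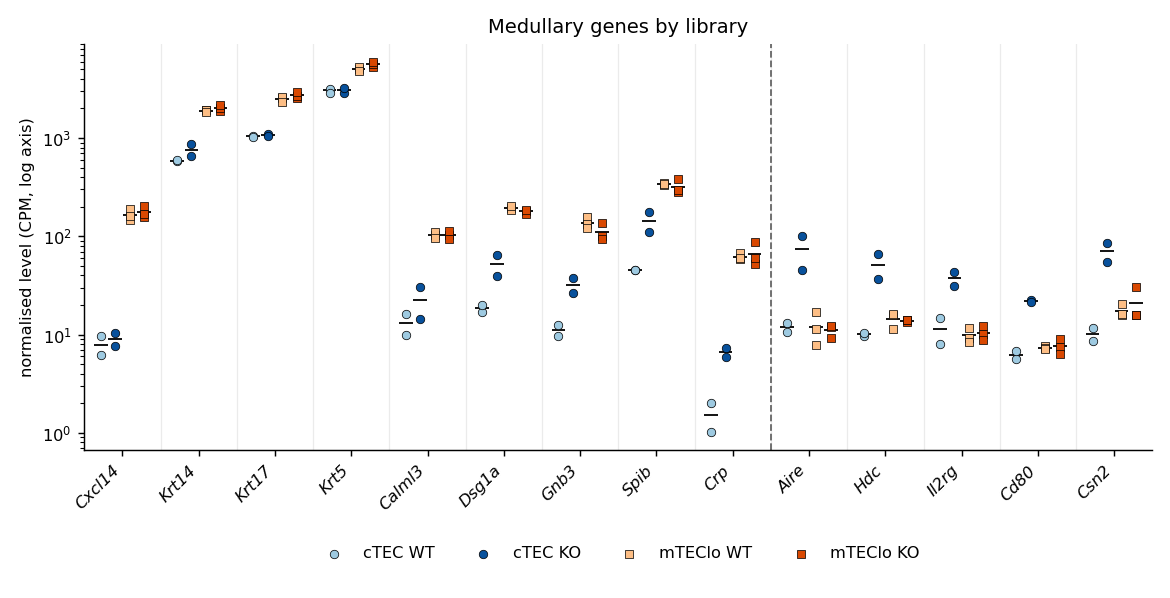
Level of 14 medullary genes in each library, in CPM on a log axis, with symbols and bars as in the plot of the cortical genes. Left of the dashed line are 9 genes lower in cTEC KO than in mTEClo KO, and right of it 5 genes higher in cTEC KO, where cTEC WT lies near or below mTEClo WT.

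Genes of specialised medullary cells were below mTEClo KO for the most part. All 15 tested genes of thymic tuft cells, chemosensory cells that use taste signalling, were below 0 in the log2 fold change, with a median of -0.89. In edgeR 4 were called lower, where 2.87% of all genes tested were, and 2 of them passed both fits. In 14 of the 15 the groups did not overlap, while 26.6% of all genes tested did not overlap with cTEC KO below. Gnb3, a G protein subunit of taste signalling, read 37.7 and 26.3 CPM against 136, 99.7 and 93.9 CPM (log2 fold change -1.79, adjusted p = 0.0158), and Gnat3, gustducin, read 41.5 and 32 CPM against 106, 106 and 79.2 CPM (log2 fold change -1.42, adjusted p = 0.0165). In the WT all 15 tuft genes were lower in cTEC, with a median of -2.64. Of 11 genes of cornified, skin-like cells, 5 were lower in cTEC KO, 4 of them in both fits, and the median was -1.89. In the WT 11 of 11 were lower, where 24.1% of all genes tested were, with a median of -3.40. Calml3, a calmodulin-like protein of skin, read 30.6 and 14.3 CPM against 104, 114 and 94.3 CPM, and Dsg1a, a desmosomal cadherin, read 65 and 39.5 CPM against 180.0, 170.4 and 187 CPM. With cTEC KO 1 or 2 left out the tuft list had 13 and 7 genes lower and the cornified list 11 and 9; without any 1 mTEClo KO library both had none.

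Of 33 tissue-restricted antigen genes, transcripts of single organs that the medulla displays, 31 were tested, 2 were higher and 3 lower in cTEC KO, and the median was -0.08. Over all genes tested, 3.32% were higher and 2.87% lower. In the WT 28 were tested, 19 were lower in cTEC, none was higher, and the median was -2.55, where 24.1% of all genes tested were lower. The knockout median moved with single libraries: it was -5.47 without cTEC KO 1 and 0.34 without cTEC KO 2. Crp, the liver's C-reactive protein, read 5.9 and 7.32 CPM in cTEC KO and 87.5, 51.9 and 59.9 CPM in mTEClo KO (log2 fold change -3.35, adjusted p = 0.00601). Iapp, the islet peptide amylin, read 13.5 and 13.7 CPM against 36.5, 39.4 and 36 CPM (log2 fold change -1.48, adjusted p = 0.00664), where the WT gap was -6.71. In the other direction, Csn2, the milk protein beta-casein, read 86.5 and 54.2 CPM against 30.6, 15.8 and 15.9 CPM (log2 fold change 1.74, adjusted p = 0.0458), and Apoa1, the apolipoprotein of liver and gut, read 9.86 and 8.67 CPM against 2.46, 2.73 and 2.08 CPM (log2 fold change 1.92, adjusted p = 0.0308). Many members were scarce, and cTEC KO 2 had 0 reads of Csn1s1, Csn3, Sst and Gcg, where cTEC KO 1 had 1.4 to 3.05 CPM. Without cTEC KO 1 and 2 the list had 5 and 9 genes higher and 16 and 6 lower; without mTEClo KO 1, 2 and 3 it had none higher and 1, 1 and 0 lower.

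Genes of mature medulla stood partly on the cortical side. Of 13 tested, 5 were higher in cTEC KO (Aire, Cd80, Ccl22, Hdc and Il2rg) and 1, Spib, was lower, with a median of 0.42. In the WT 2 were higher and 7 lower, with a median of -0.54. Among all genes tested, 3.32% were higher and 2.87% lower in the knockout, and 20.9% and 24.1% in the WT. Aire, which drives the display of tissue antigens, read 101 and 45.7 CPM in cTEC KO and 11.9, 9.24 and 12.1 CPM in mTEClo KO (log2 fold change 2.72, adjusted p = 0.0141). In the WT Aire read 13.2 and 10.7 CPM in cTEC and 17, 11.3 and 7.76 CPM in mTEClo, a log2 fold change of -0.02. Cd80, a costimulatory ligand, read 22.6 and 21.3 CPM against 7.55, 8.98 and 6.27 CPM (log2 fold change 1.51, adjusted p = 0.0204). Hdc, which makes histamine, read 66.1 and 37.2 CPM against 13.3, 14.2 and 14.2 CPM (log2 fold change 1.88, adjusted p = 0.0158). Spib, an ETS factor of mature medulla, read 175 and 110.0 CPM against 385, 282 and 294 CPM (log2 fold change -1.19, adjusted p = 0.0475). Fezf2, the other regulator of tissue antigens, read 126 and 50.6 CPM against 219, 178 and 225 CPM and did not pass (adjusted p = 0.113). In bulk libraries, more cells of a type and more RNA of a gene per cell cannot be told apart. Leaving out cTEC KO 1 or 2, the list had 5 and 6 genes higher and 5 and 4 lower; without any 1 mTEClo KO library it had none.

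Across the 16953 genes tested in both genotypes, the log2 fold changes of the knockout and WT comparisons had a Pearson correlation of 0.449, which is across genes, and genes are not independent replicates. Of 1074 genes called in the knockout, 920 (85.7%) were called in the same direction in the WT and 19 in the opposite direction. The 920 genes made up 11.98% of the 7678 WT calls. In the WT, 979 genes (5.69% of those tested) were called at least 2-fold higher in cTEC and 2332 (13.5%) at least 2-fold lower. The 955 of the higher genes that were tested in both genotypes had a median gap of 1.63 in the WT and 1.30 in the knockout, and 95.2% had the same sign. The 2299 of the lower genes tested in both had a median gap of -2.29 in the WT and -0.88 in the knockout, and 82.1% had the same sign. Both sets were chosen on the WT gap, so the 2 medians of a set are a description and were not tested against each other. Taken library by library, the first set had a median gap of 1.01 in cTEC KO 1 and 1.27 in cTEC KO 2, and the second set -0.47 and -1.02.

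**Figure D3:**
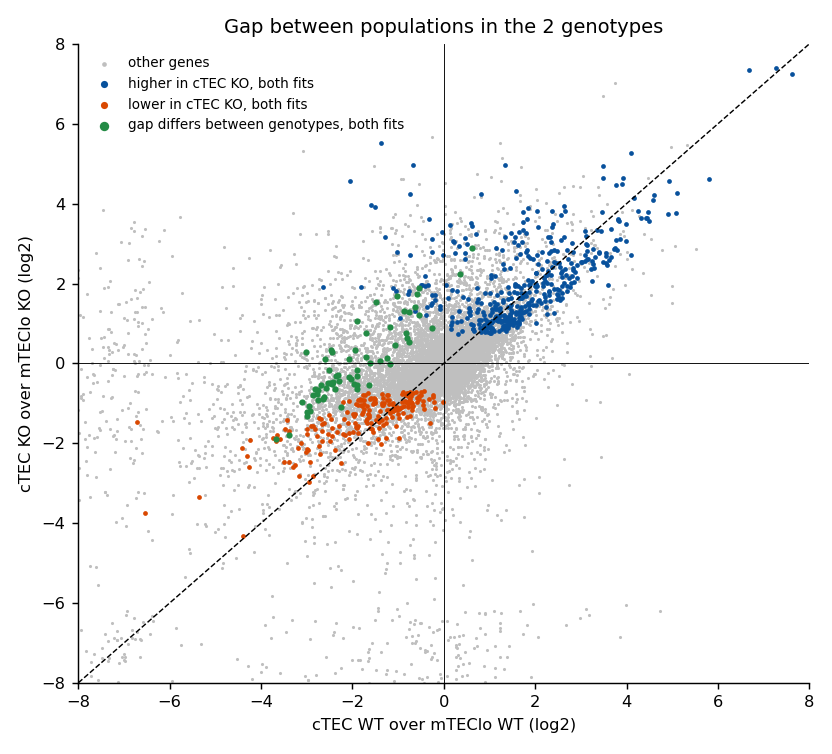
Log2 fold change of cTEC over mTEClo for each of 16953 genes, in the WT on the x axis and in the knockout on the y axis; 209 genes lie outside the axes and the dashed line marks equal gaps. Blue and orange are genes called higher and lower in cTEC KO by both fits, and the 63 green genes, whose gap differs between genotypes in both fits, all lie above the line.

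The difference between the gaps was tested itself, as an interaction over the 10 libraries. A total of 63 of 17820 genes (0.354%) passed in both edgeR and voom, all with a higher gap in the knockout, and none passed both with a lower one. voom alone called no gene with a lower gap either; 2021 genes of both directions had an unadjusted p under 0.05 in voom and 3993 in edgeR. Of the 63, 59 were called lower in cTEC WT than in mTEClo WT and 14 were called higher in cTEC KO than in mTEClo KO. Their median gap was -2.07 in the WT and -0.30 in the knockout. Plcb2, the phospholipase of taste signalling, read 121 and 122 CPM in cTEC KO and 221, 216 and 184 CPM in mTEClo KO, against 46.4 and 37.4 CPM in cTEC WT and 327, 288 and 294 CPM in mTEClo WT. Its gap differed by 2.09 on the log2 scale (adjusted p = 9.82e-04 in edgeR and 0.00402 in voom). Dscaml1 (chr9:45427433-45753713), a cell adhesion molecule, changed its side: it read 43.6 and 53.9 CPM in cTEC KO and 30.4, 28.7 and 26.5 CPM in mTEClo KO, against 11.3 and 13.4 CPM in cTEC WT and 42.7, 40.3 and 37.5 CPM in mTEClo WT. Adcy5, an adenylyl cyclase, had gaps of -0.65 in the knockout and -2.83 in the WT. Each of the 63 genes had a larger value than in the WT with cTEC KO 1 alone and with cTEC KO 2 alone (median difference 1.91 and 1.77), which describes the genes that these libraries chose. edgeR alone called 607 genes higher and 227 lower (3.41% and 1.27%). In this test, calls of edgeR alone are named as such. Counts of list members and adjusted p-values elsewhere are those of edgeR unless voom or both fits are named.

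Of the 14 genes called higher in cTEC KO, Cd52, Nos2 and Apoa4 serve as examples, chosen after their values were seen. Cd52 and Nos2 are best known from leukocytes. Cd52 read 39.9 and 41.2 CPM in cTEC KO and 9.07, 8.56 and 7.65 CPM in mTEClo KO, where cTEC WT had 9.08 and 10.4 CPM. Nos2, the inducible nitric oxide synthase, read 103 and 52.2 CPM in cTEC KO and 9.43, 8.97 and 12.5 CPM in mTEClo KO. In the WT it read 18.8 and 15.9 CPM in cTEC and 12.2, 12.1 and 9.21 CPM in mTEClo. Apoa4, an intestinal apolipoprotein, read 28.03 and 34.1 CPM in cTEC KO against 11.1, 8.55 and 8.96 CPM in mTEClo KO, where cTEC WT had 7.08 and 2.47 CPM. The WT gaps of Cd52, Nos2 and Apoa4 were 0.36, 0.62 and -1.02 on the log2 scale, and their knockout gaps 2.25, 2.90 and 1.68. In the reverse direction, the cortical genes Kitl, Ly75, Cxcl12 and Cd83 had smaller gaps in the knockout, by -1.01, -0.96, -0.86 and -0.91 on the log2 scale. These passed edgeR (adjusted p = 0.0138, 0.0385, 0.0438 and 0.0425) and not voom (0.0908, 0.25, 0.176 and 0.234). The gaps of Prss16 and Ccl25 differed between genotypes by -0.67 and -0.18, with adjusted p = 0.349 and 0.81.

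**Figure D4:**
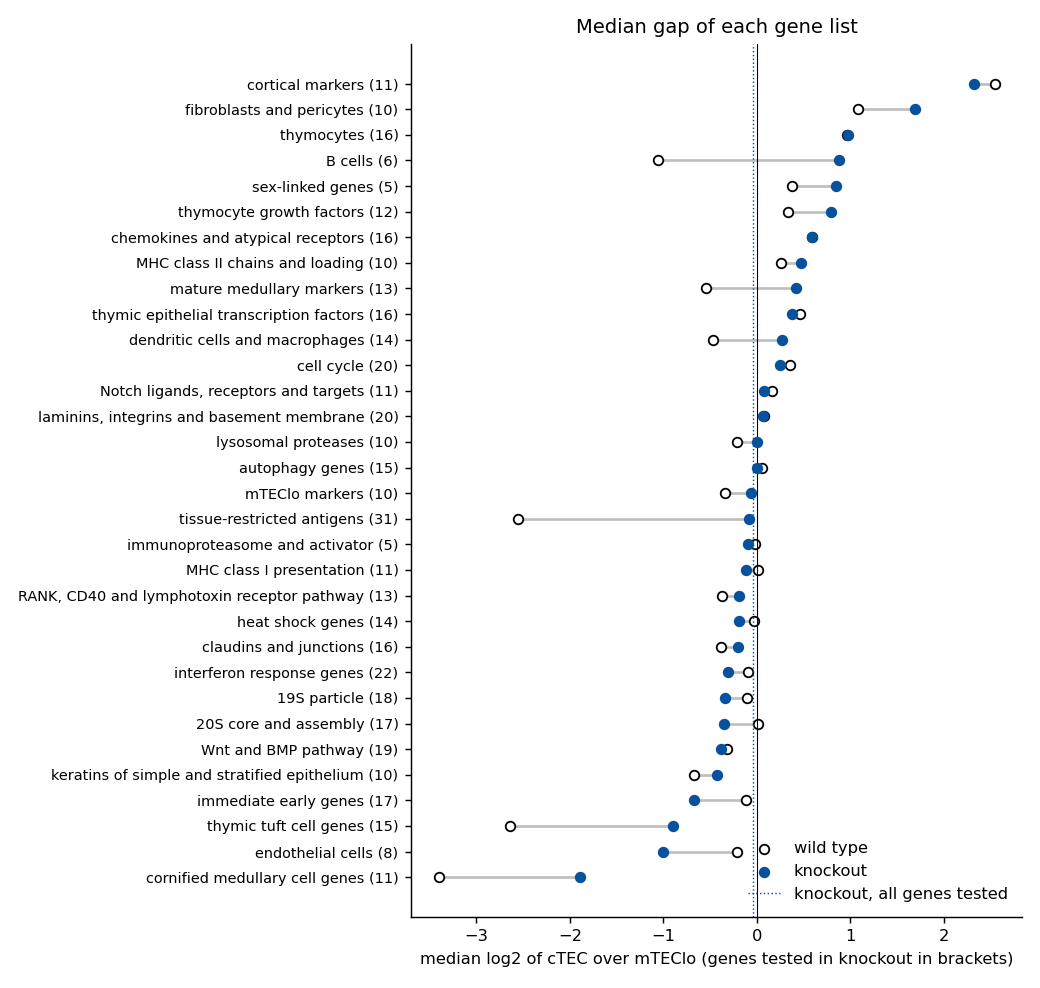
Median log2 fold change of cTEC over mTEClo for each gene list with at least 5 genes tested, in the knockout (filled) and in the WT (open); the dotted line is the knockout median over all genes tested, -0.04. Cortical markers stay at the top in both genotypes (2.33 and 2.54), while tissue-restricted antigens, tuft and cornified genes lie closer to 0 in the knockout than in the WT. For the antigens this rests on cTEC KO 1: their knockout median was -5.47 without it and 0.34 without cTEC KO 2.

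In the antigen-processing machinery few genes passed the test between the knockout populations, as was the case over all genes tested (3.32% higher and 2.87% lower). Lists of this size hold few calls or none at that share. None of 5 immunoproteasome and activator genes and none of 18 genes of the 19S particle passed, and of 17 genes of the 20S core and its assembly only Psmb7 was lower (adjusted p = 0.0411 in edgeR and 0.26 in voom). The subunit lists leaned one way all the same: in 12 of 17 core genes and 13 of 18 particle genes the cTEC KO libraries lay below all mTEClo KO libraries, with medians of -0.35 and -0.34, against 26.6% of all genes tested. In the WT the medians were 0.02 and -0.10, and 1 core gene and 6 particle genes were called lower, where 24.1% of all genes tested were. The cTEC WT libraries lay below all mTEClo WT libraries in 3 core and 9 particle genes, and above them in 7 and 1. That was so below for 5916 and above for 5396 of all 17213 genes tested. No gene of either list passed the edgeR test of the difference between genotypes. Psmb5, the constitutive counterpart of beta5t, read 47 and 23.2 CPM in cTEC KO and 44.5, 47.8 and 46.7 CPM in mTEClo KO, and Psmb8, its counterpart in the immunoproteasome, read 158 and 148 CPM against 189, 188 and 185 CPM. With cTEC KO 1 left out the core and particle lists had 10 and 8 genes lower, and without cTEC KO 2 they had 2 and 4. No gene of the 11 for MHC class I presentation passed; H2-K1, a class I heavy chain, read 3662 and 3063 CPM against 3902, 3926 and 3936 CPM (adjusted p = 0.265).

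MHC class II is the property by which mTEClo were gated, so its level checks the sort in part. In all 10 class II genes the cTEC KO libraries lay above all mTEClo KO libraries, and 2 passed the test; over all genes tested, 20.4% lay that way. H2-DMa, part of the peptide-loading catalyst, read 213 and 279 CPM against 132, 124 and 131 CPM (log2 fold change 0.91, adjusted p = 0.0182). H2-Oa, part of its inhibitor, read 82 and 68.9 CPM against 48.8, 43.3 and 48.7 CPM and passed edgeR (adjusted p = 0.0367) but not voom (0.1). H2-Aa, a class II chain, read 2770 and 3025 CPM against 2242, 2254 and 2187 CPM (adjusted p = 0.084). Among 10 lysosomal proteases only Prss16 passed, and among 15 autophagy genes only Map1lc3a was lower, at 117 and 72.8 CPM against 224, 195 and 205 CPM. Among all genes tested, 3.32% were higher and 2.87% lower, a share at which lists of 10 to 20 genes hold few calls or none. None of 13 genes of the RANK, CD40 and lymphotoxin receptor pathway and none of 20 cell cycle genes passed with all libraries; without cTEC KO 1 these lists had 1 gene higher and 7 lower, and 8 higher and 6 lower, and without cTEC KO 2 they had 1 and 1, and 5 and 2.

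Immediate early genes, which respond rapidly to stimuli, leaned to mTEClo KO. Of 17 tested, 7 were lower and none higher, with a median of -0.67, where 2.87% of all genes tested were lower; 3 of the 7 passed both fits. In 14 the cTEC KO libraries lay below all mTEClo KO libraries, against 26.6% of all genes tested. Atf3, a stress-induced factor, read 737 and 562 CPM against 1510, 1963 and 1988 CPM (adjusted p = 0.0141), and Klf6 read 664 and 628 CPM against 1320, 1706 and 1729 CPM (log2 fold change -1.31, adjusted p = 0.0108). Fos read 3695 and 3657 CPM against 5507, 6113 and 6746 CPM and passed edgeR (adjusted p = 0.0247) but not voom (0.0582). In the WT 2 of the 17 were higher and 8 lower in cTEC, with a median of -0.11, and no gene of the list passed both tests of the difference between genotypes. Of 22 interferon response genes 4 were lower, Cxcl9, Cxcl10, Irf7 and Oas1a, of which Irf7 and Oas1a passed edgeR alone. Of 14 heat shock genes only Hspb1 was lower. Without cTEC KO 1 and 2 the immediate early list had 11 and 10 genes lower, and without mTEClo KO 1, 2 and 3 it had 1, 0 and 0.

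Markers of other cells were read beside these results. Ptprc, the gene of CD45, by which blood cells were gated out, read 29.4 and 39.5 CPM in cTEC KO and 27.8, 23.8 and 16.5 CPM in mTEClo KO, while Epcam, the epithelial gate, read 601 and 498 CPM against 904, 964 and 830.1 CPM. Of 10 fibroblast and pericyte genes, 7 were higher in cTEC KO, against 3.32% of all genes tested; without mTEClo KO 1, 2 and 3 the count was 1, 2 and 0. Among them were Col1a1 at 51.8 and 44.5 CPM against 6.91, 10.5 and 9.96 CPM and Dcn at 446 and 749 CPM against 195, 211 and 191 CPM. Rgs5 and Acta2, genes of contractile cells, were lower, Acta2 with 176 and 310.1 CPM against 748, 704 and 770.1 CPM. The summed level of the list was 1112 and 1630 CPM in cTEC KO and 1282 to 1314 CPM in mTEClo KO, and in the WT 6 genes were higher and 2 lower. The 16 thymocyte genes summed to 190 and 303 CPM in cTEC KO and to 119 to 181 CPM in mTEClo KO. None passed with all libraries, 12 were higher without cTEC KO 1 and 1 without cTEC KO 2, and in 9 the cTEC KO libraries lay above all mTEClo KO libraries, against 20.4% of all genes tested; Cd3e read 5.33 and 13.5 CPM against 2.57, 2.23 and 1.76 CPM. The 14 dendritic cell and macrophage genes summed to 123 and 93.2 CPM against 52.1 to 85.6 CPM, and Fcer1g, an Fc receptor subunit of myeloid cells, was higher, at 6.44 and 8.57 CPM against 0.778, 0.896 and 0.837 CPM. Clec9a and Siglech, defining dendritic cell genes, were at 0 to 0.224 CPM in all 5 libraries. The 6 B cell genes summed to 12.2 and 12.9 CPM against 9.22 to 14.7 CPM, and the 8 endothelial genes to 58.5 and 25.2 CPM against 78.3 to 83.9 CPM. The haemoglobin genes had at most 0.084 CPM. Ccl22, Ccl5, Cd83 and Flt3 are also expressed by dendritic cells. The part of these cells in any result was not tested.

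**Figure D5:**
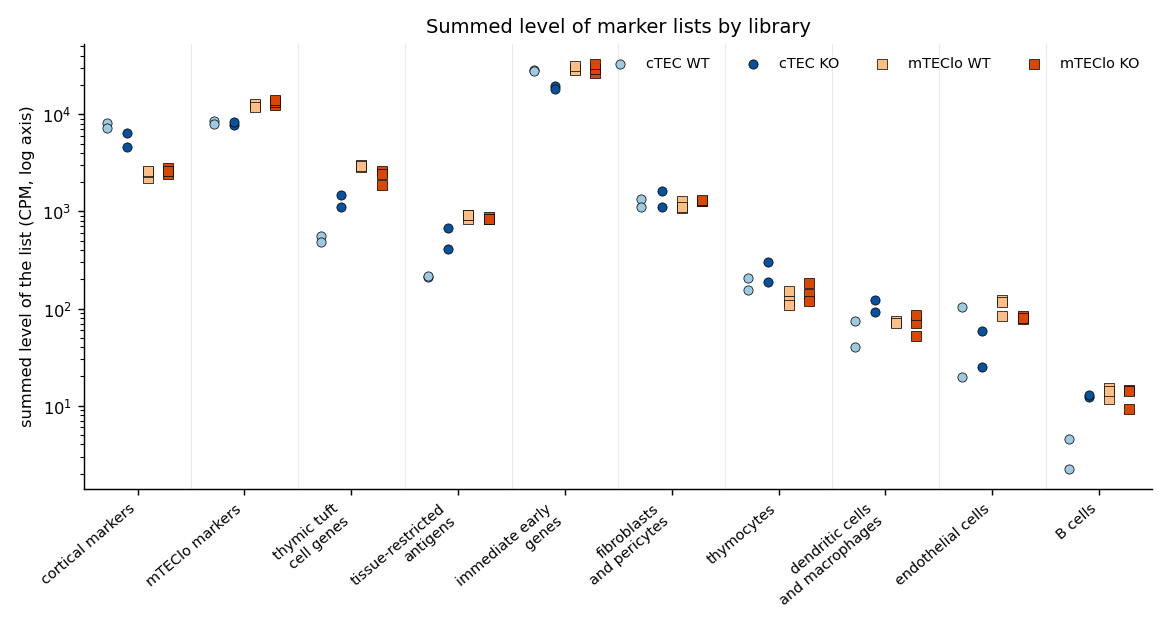
Summed CPM of 10 marker lists in each library on a log axis, with symbols as in the plot of the cortical genes. The cortical sum is higher in both cTEC KO libraries than in all mTEClo KO libraries and the mTEClo marker sum lower, while fibroblast sums overlap and both cTEC KO libraries have the higher thymocyte and dendritic cell sums.

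Xist, transcribed in females, and the Y-linked genes Ddx3y, Eif2s3y, Uty and Kdm5d were present in all 5 libraries. Xist read 123 and 679 CPM in cTEC KO and 668, 614 and 872 CPM in mTEClo KO, with cTEC KO 1 far below the others (adjusted p = 0.455). Kdm5d read 35.8 and 28 CPM against 17.1, 19.1 and 14.9 CPM and passed edgeR at an adjusted p of 0.0499 but not voom (0.0928). Both kinds of transcript in a library mean RNA of both sexes, and the mix moved with the groups compared; its part in the results was not tested.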

How the data were processed

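Members and gene lists were chosen with earlier results of these data known. The authors deposited raw read counts per gene symbol, with 5 further entries for reads in no gene, which were left out here, and RPKM values (reads per length and library total) for 23063 genes. The submitters' processing notes name HTSeq 0.5.4p1, CASAVA 1.8.2 and mm10, which is GRCm38; the aligner is not given in the sources used here. Per the labels' protocols the libraries came from a TruSeq kit, which does not mark the strand. Overlapping and near-identical genes are therefore uncertain.

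Counts of the 5 knockout libraries, and separately of the 5 WT libraries, went into edgeR 4.0.16 under R 4.3.3 (filterByExpr, TMM, quasi-likelihood F test, Benjamini-Hochberg threshold 0.05). The difference between both comparisons was an interaction over 10 libraries. limma 3.58.1 (voom with quality weights per population) gave the second fit and DESeq2 1.42.0 an alternative. Fits were tested on simulated data. CPM were scaled by TMM over the 10 libraries. SE came from the F statistic.

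Named genes were Psmb11, Enpep and those taken by a rule. Candidates passed both fits, differed at least 2-fold, did not overlap between the groups and averaged 5 CPM or more in the higher group. Per direction the rule took the 8 candidates of largest fold and the 8 of smallest p. From each list it took up to 4 members past both fits, without a limit on fold, overlap or level. For the interaction it took the 5 smallest p-values per direction. Other list members are given to account for a list. A marker of the MHC class II low medulla list is not reported here.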

Additional observations from a re-analysis of the deposited data

Results flagged for a closer look

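In 63 genes, the gap between cTEC and mTEClo differed between knockout and WT in both tests of that difference, and in each the knockout gap was the higher. Beside Cd52, Nos2 and Apoa4, named above as examples, 12 of them were named by the rule for single genes or stood in a list. The knockout gap exceeded the WT gap by 2.47 on the log2 scale for Dscaml1, 2.09 for Plcb2 and 2.19 for Adcy5, by 2.74 for Resp18, a neuroendocrine secretory protein, and by 2.42 for Hdc. It exceeded it by 1.83 for Trpm5, the ion channel of tuft cells, 1.76 for Avil, a marker of the same cells, and 1.75 for Spib. It also did so by 1.17 for Ctss, the medullary cathepsin, 1.61 for Dsg1a, 1.62 for Cldn7, a claudin, and 1.79 for Cdhr1, a cadherin of photoreceptors. In these 12 the cTEC KO mean lay above the cTEC WT mean. The mTEClo KO mean lay below the mTEClo WT mean in all of them but Ctss, so both populations enter the difference. Trpm5, for example, read 291 and 184 CPM in cTEC KO and 94.8 and 79.6 CPM in cTEC WT, against 487, 472 and 380.2 CPM in mTEClo KO and 607, 567 and 573 CPM in mTEClo WT. Ctss read 49.9 and 57.8 CPM in cTEC KO and 20.9 and 22.8 CPM in cTEC WT, with means of 53.6 CPM in mTEClo KO and 49 CPM in mTEClo WT.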

How the results depend on the processing

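The knockout counts of 577 higher and 500 lower genes stayed within 1.5 times with DESeq2's size factors or without a low count filter. They came to 1729 and 1539 with DESeq2's Wald test, to 2848 and 3145 in 1 fit of all 16 libraries, to 246 lower with voom and to 200 lower in edgeR and voom together. Leaving out 1 library gave 2 to 3816 genes higher and 1 to 6019 lower. The WT counts of 3590 and 4145 stayed within 1.5 times under every alternative run (2546 to 4112 and 2977 to 5367 without 1 library). The interaction counts of 607 and 227 became 1425 and 805 with DESeq2, 1556 and 1120 in the fit of all 16 libraries, and 63 and 0 with voom as well as in edgeR and voom together. Without 1 library they were 283 to 2562 and 26 to 3958. Of the 1077 knockout calls, 1040 were kept with other size factors, 640 in voom, and 50, 113 and 3 without mTEClo KO 1, 2 and 3. Only Psmb11 reversed among 87 single gene results: without 1 library its fold change ranged from -9.92, with 0 reads in the remaining cTEC KO library, to 0.72. Most of the other genes were named for passing both fits in these libraries, so their kept sign was largely set by that choice. Without mTEClo KO 3, 70 knockout gene results no longer passed the threshold and 4 kept their status.

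Whether equal replicate numbers in cTEC and mTEClo mark pairs could not be told. With 2 cTEC libraries, their deviations from the group mean mirror each other. Deviations of equal numbers correlated at 0.084 and 0.057 in the knockout and at -0.056 and -0.011 in the WT. With the replicate number as a block, the knockout counts were 461 and 580, the WT counts 2747 and 3209, and the interaction counts 102 and 1. The 2 cTEC KO libraries and their spread limit what can be called.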

Other observations

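Further genes named by the rule were lower in cTEC KO than in mTEClo KO. Chgb, a granule protein of endocrine cells, read 9.58 and 4.81 CPM against 43.7, 55.6 and 51.6 CPM, and Gfra2, the neurturin co-receptor, read 24.1 and 15.6 CPM against 126, 102 and 125 CPM. Robo2, a receptor of axon guidance, read 40.02 and 41.21 CPM against 111, 106 and 121 CPM, and Scn3b, a sodium channel beta subunit, read 15.4 and 17.9 CPM against 103, 78.6 and 93.8 CPM. Their log2 fold changes were -2.82, -2.58, -1.49 and -2.48, and each passed both fits. The same holds for Clca4, with 11.6 and 4.15 CPM against 104, 97.3 and 111 CPM, and for Wfdc18, with 119 and 121 CPM against 456, 422 and 371 CPM. Pdlim3, Dapl1, Col6a4, Tead2, Dbn1 and Cdhr1 had log2 fold changes between -2.96 and -1.78.

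Of 20 laminin, integrin and basement membrane genes, Itga6 and Col4a1 were lower in cTEC KO and none was higher, where 2.87% and 3.32% of all genes tested were. They read 389.6 and 465 CPM against 634, 710.4 and 753 CPM and 837 and 810.0 CPM against 1089, 1147 and 1175 CPM. Both passed edgeR (adjusted p = 0.0305 and 0.0419) and not voom (0.0563 and 0.186). Without cTEC KO 1 the list had 3 genes higher and 6 lower, without cTEC KO 2 it had 1 and 2, and without any 1 mTEClo KO library none. P4ha3, a collagen prolyl hydroxylase subunit, was higher, at 68 and 65.9 CPM against 19.5, 22.1 and 21.9 CPM (log2 fold change 1.64, adjusted p = 0.00458). Of 16 claudin and junction genes only Epcam was lower, by -0.73 on the log2 scale (adjusted p = 0.0335 in edgeR and 0.0512 in voom). Without cTEC KO 1 and 2 this list had 1 gene higher each, and 5 and 3 lower, and without any 1 mTEClo KO library none.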
